A study of Homo sapiens with 7 samples.

Results

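The genes described here encode core factors of nonsense-mediated mRNA decay (NMD), the surveillance pathway that removes transcripts carrying a premature stop codon. They were taken by name from the deposited gene table, namely UPF1, UPF2, UPF3A, UPF3B, SMG1, SMG5, SMG6, SMG8 and SMG9, which gave 9 of the 19978 genes listed. All 9 were among the 14863 genes with enough counts to be tested. RNA-seq was done on HEK-293 cells, a human embryonic kidney line that also expresses neuronal genes, after 48 h in 1 of 3 conditions. All of them received the solvent DMSO. Control cells were kept at pH 7.4 (2 samples), acidosis cells at pH 6.6 (3 samples), and SRPIN340 cells at pH 7.4 with 10 µM SRPIN340, an inhibitor of the kinases that phosphorylate SR splicing proteins (2 samples). The acidic medium had been titrated with hydrochloric acid, and no sample combined the inhibitor with acid. Acidosis was compared with control to describe the response to acid, SRPIN340 with control to describe kinase inhibition alone, and acidosis with SRPIN340 to set the 2 treatments side by side.

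NMD acts when a ribosome stops upstream of an exon junction complex, a protein mark that splicing leaves on the mRNA. UPF1, an RNA helicase recruited at the terminating ribosome, is connected to the exon junction complex by UPF2 and by UPF3B or its paralog UPF3A. The kinase SMG1, held in a complex with SMG8 and SMG9, phosphorylates UPF1. Phosphorylated UPF1 recruits SMG6, an endonuclease that cuts the mRNA near the stop codon, and SMG5, an adaptor that helps to bring in deadenylation and decapping. The mRNAs of several of these factors are themselves targets of the pathway, a known feedback loop.

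The libraries held 13615816 to 24110460 estimated counts. Levels are given as CPM, a gene's count relative to its library's total, with that total scaled by edgeR's TMM factors, which were 1.17 to 1.21 in the control and SRPIN340 libraries and 0.782 to 0.800 in the acidosis libraries. The 100 most abundant genes held 15.2 to 15.4% of all counts at normal pH and 24.1 to 24.8% in acidosis, and mitochondrially encoded genes took 2.38 to 2.89% and 0.307 to 0.346%. Scaling by the total count alone moved the median of all genes tested, for acidosis against control, from -0.05 to -0.63 on the log2 scale. The 6 HEK-293 markers examined were detected in every sample, with PAX2 lowest at 1.19 CPM. PTPRC (blood), PECAM1 (endothelium) and ALB (liver) did not exceed 0.983 CPM, while the fibroblast collagen gene COL1A1 was at 27.9 to 65.6 CPM. Their part in the results was not tested. In such bulk samples, fewer cells of a type and less RNA per cell cannot be told apart.

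All 9 factors differed between acidosis and control in the main analysis, and they did so in both directions. SMG9, SMG5 and SMG1 were about 3 times as abundant in acidosis, while SMG6 was at 0.378 of its control level. SMG8, UPF3A, UPF3B and UPF2 were lower by smaller amounts, and UPF1 was slightly higher, a direction that turned when libraries were scaled by total count alone. A gene is said to have passed where its adjusted p was under 0.05 by the quasi-likelihood test of edgeR, after Benjamini-Hochberg adjustment over all genes tested, and to have been called where its log2 fold change was also beyond 1 in size. Of the 9 members 4 passed as higher and 5 as lower, against 32.5% and 34.2% of all genes tested. Of 13 alternative analyses, UPF1 missed the threshold in 7 and UPF2 in 8. The calls were 3 higher and 1 lower, against 14.4% and 19.1% of all genes. With scaling by total count alone, 3 members passed as higher and 6 as lower, and the calls were 2 higher and 4 lower. Of all 14863 genes tested, 2413 passed as higher and 8179 as lower with that scaling. The calls over all genes were then 815 higher and 5202 lower. The median size of the log2 fold change was 0.80 over the 9 members and 0.74 over all genes tested.

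**Figure D1:**
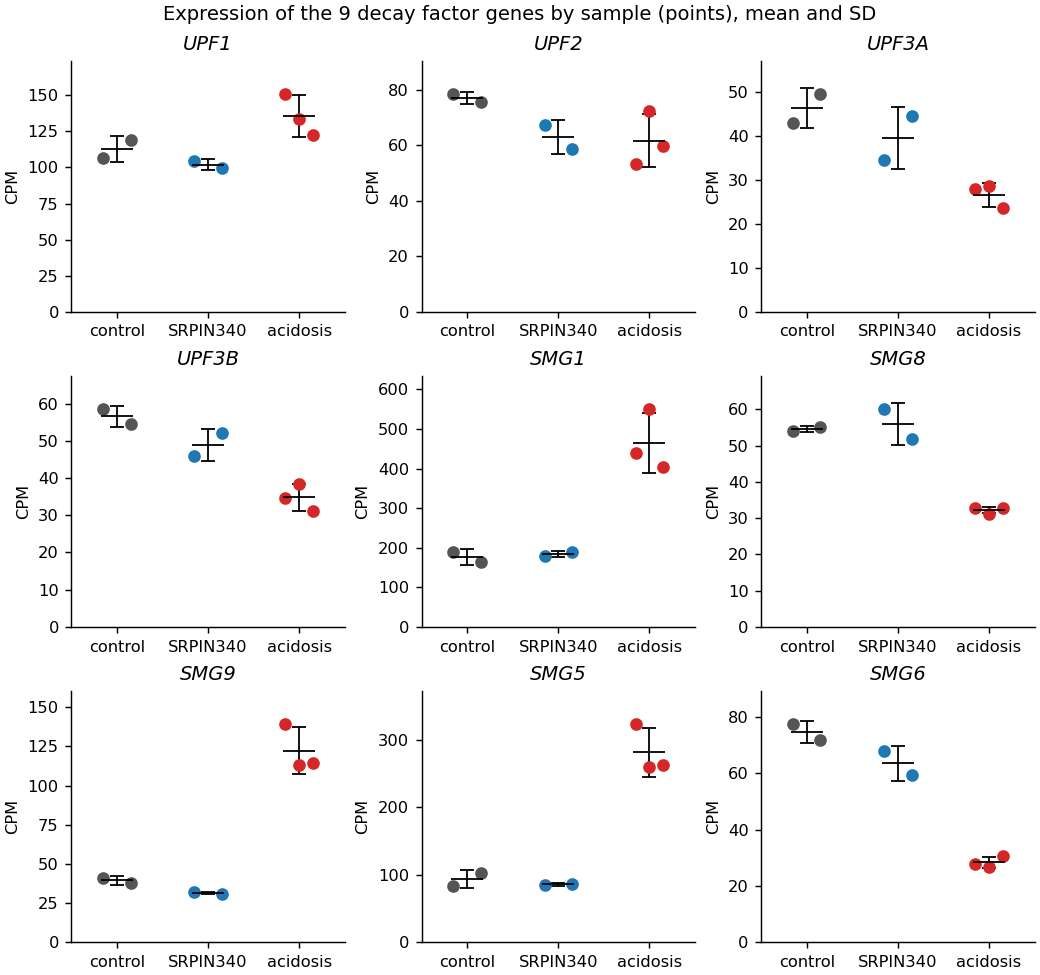
TMM-scaled CPM (linear axes starting at 0) of the 9 genes in each sample, with points for samples, a long bar for the mean and whiskers for the SD of the 2 control, 2 SRPIN340 and 3 acidosis samples. For SMG1, SMG5 and SMG9 every acidosis sample lies far above the other samples, for SMG6 and SMG8 far below, and for UPF2 the acidosis and SRPIN340 samples overlap.

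Among the surveillance factors, UPF1 (ENSG00000005007.14, GRCh38 chr19:18831959-18868230, plus strand) was at 106 and 119 CPM in control, 105 and 99.4 CPM with SRPIN340, and 151, 134 and 122 CPM in acidosis. The acidosis samples were the highest, but the lowest of them was close to the higher control sample. The log2 fold change in acidosis was 0.27 (SE 0.099, 95% interval 0.046 to 0.49, edgeR adjusted p = 0.0360). This small difference depended on the processing. UPF1 turned to -0.31 (adjusted p = 0.0199) with total-count scaling, and missed the threshold without control sample 1 (adjusted p = 0.241), control 2 (0.0517), SRPIN340 1 (0.0623), SRPIN340 2 (0.0611) or acidosis 1 (0.110).

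UPF2 (ENSG00000151461.20, chr10:11920022-12043170, minus strand), the bridge between UPF1 and UPF3, was at 78.6 and 75.5 CPM in control, 67.2 and 58.5 CPM with SRPIN340, and 53.3, 72.3 and 59.6 CPM in acidosis. All treated samples lay below both control samples, and the acidosis samples spanned the SRPIN340 values. The log2 fold change in acidosis was -0.32 (SE 0.126, 95% interval -0.61 to -0.04, adjusted p = 0.0444). With SRPIN340 it was -0.29 (95% interval -0.60 to 0.013, adjusted p = 0.304), which did not pass. UPF2 did not pass in acidosis without control 1 (adjusted p = 0.156), control 2 (0.0829), SRPIN340 1 (0.0538), SRPIN340 2 (0.0537), acidosis 1 (0.129) or acidosis 3 (0.103).

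The paralogs UPF3A and UPF3B both fell in acidosis. UPF3A (ENSG00000169062.15, chr13:114281601-114305817, plus strand) was at 43.0 and 49.5 CPM in control, 34.6 and 44.4 CPM with SRPIN340, and 27.8, 28.5 and 23.5 CPM in acidosis. UPF3B (ENSG00000125351.14, chrX:119834022-119852998, minus strand) was at 58.6 and 54.6 CPM in control, 45.9 and 52.0 CPM with SRPIN340, and 34.7, 38.5 and 31.1 CPM in acidosis. For both genes every acidosis sample was below every other sample. The log2 fold changes were -0.80 (SE 0.140, adjusted p = 0.000639) for UPF3A and -0.70 (SE 0.112, adjusted p = 0.000352) for UPF3B. Within each sample the UPF3A level was 0.734 to 0.906 of the UPF3B level, with group means of 0.820 ± 0.122 in control (SD, n = 2) and 0.765 ± 0.0314 in acidosis (SD, n = 3), and the samples overlapped (exact two-sided permutation p = 0.7, where 3 against 2 samples cannot give less than 0.1). The UPF3A value is uncertain, since 50.1% of the 31-base stretches of its canonical transcript also occur in transcripts of other genes, among them the pseudogenes UPF3AP1 and UPF3AP2, whereas UPF3B shares 0.173%.

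In the UPF1 kinase complex the catalytic subunit and 1 partner rose and the other partner fell. SMG1 (ENSG00000157106.18, chr16:18804860-18926408, minus strand) was at 190 and 163 CPM in control, 180 and 191 CPM with SRPIN340, and 439, 551 and 404 CPM in acidosis. Control and SRPIN340 samples overlapped, and the lowest acidosis sample stood clear of them all. The log2 fold change in acidosis was 1.39 (SE 0.129, adjusted p = 8.04e-06), a 2.63-fold higher level. SMG1 has several pseudogene copies, and 22.4% of its 31-base stretches occur in transcripts of other genes, including SMG1P1, SMG1P2, SMG1P3 and SMG1P5, so its counts are uncertain.

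SMG9 (ENSG00000105771.14, chr19:43727983-43754962, minus strand), which with SMG8 regulates the kinase, was at 41.2 and 37.4 CPM in control, 31.8 and 30.7 CPM with SRPIN340, and 139, 113 and 114 CPM in acidosis. The 3 groups did not overlap. Its log2 fold change of 1.64 in acidosis (SE 0.114, adjusted p = 1.21e-06) was the highest among the members and a 3.12-fold difference.

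SMG8 (ENSG00000167447.13, chr17:59209400-59215239, plus strand) was at 54.0 and 55.2 CPM in control, 60.1 and 51.9 CPM with SRPIN340, and 32.7, 31.2 and 32.8 CPM in acidosis. The acidosis samples were nearly equal and lay well below the rest. The log2 fold change was -0.76 (SE 0.0972, adjusted p = 7.79e-05). An overlapping gene on the same strand, ENSG00000265303, shares 12.4% of the SMG8 stretches and was listed at 0 in every library but acidosis 1.

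The effectors downstream of phosphorylated UPF1 moved in opposite directions. SMG5 (ENSG00000198952.8, chr1:156249224-156282825, minus strand) was at 83.6 and 103 CPM in control, 84.1 and 86.7 CPM with SRPIN340, and 324, 259 and 263 CPM in acidosis. SMG6 (ENSG00000070366.14, chr17:2059839-2303785, minus strand) was at 77.6 and 72.0 CPM in control, 68.0 and 59.3 CPM with SRPIN340, and 27.7, 26.7 and 30.4 CPM in acidosis. In both genes the acidosis samples stood far from all others, above them for the adaptor and below them for the endonuclease. The log2 fold changes were 1.60 for SMG5 (SE 0.123, adjusted p = 2.40e-06) and -1.40 for SMG6 (SE 0.102, adjusted p = 1.67e-06). Neither transcript shares a 31-base stretch with a transcript of another gene when both are read 5′ to 3′. Sharing with the opposite strand was not searched.

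The SMG6 gene overlaps SRR, the serine racemase gene, on the opposite strand, and whether strand was used in counting is not given in the sources used here. SRR was at 34.9 and 33.8 CPM in control, 36.5 and 35.9 CPM with SRPIN340, and 4.45, 4.22 and 4.56 CPM in acidosis. It fell by 2.96 on the log2 scale in acidosis (SE 0.120, adjusted p = 4.74e-08), a larger fall than that of SMG6. HIC1, another protein-coding gene, also overlaps SMG6 on the opposite strand. Its unscaled counts were 36.6 and 44.5 in control, 37.4 and 64.4 with SRPIN340, and 93.1, 24.1 and 46.4 in acidosis. The part of SRR and HIC1 in the SMG6 value was not tested.

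**Figure D2:**
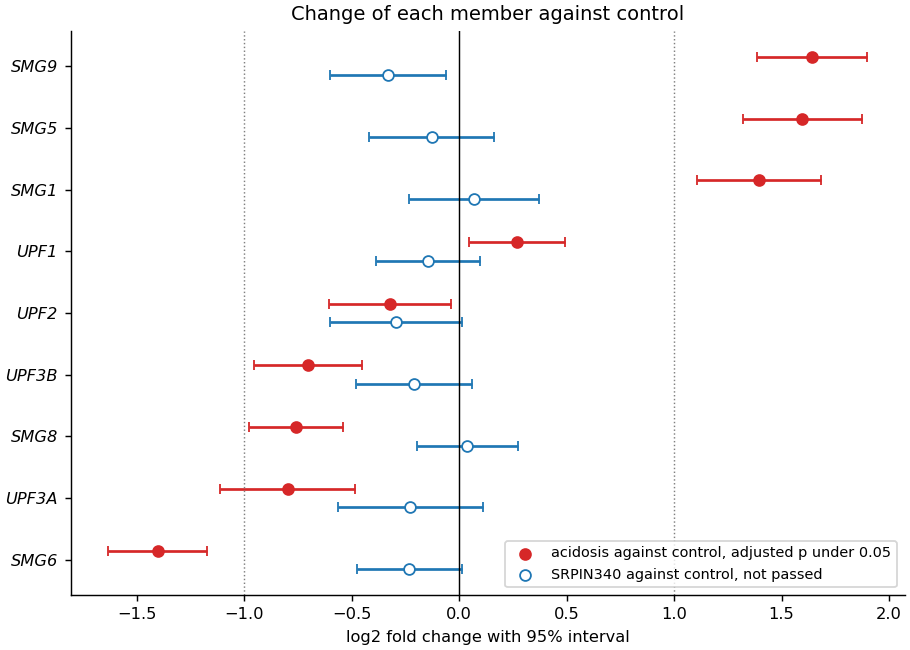
Log2 fold change of each gene in acidosis against control and in SRPIN340 against control, with bars for the 95% interval from edgeR's fit. In acidosis against control SMG1, SMG5 and SMG9 lie above 1 and SMG6 below -1, while the values for SRPIN340 against control run from -0.33 to 0.07.

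Ratios of members within a sample do not depend on the scaling of the library. The 6 ratios examined were chosen after the levels had been seen, and the exact two-sided permutation test cannot give a p below 0.1 for 3 against 2 samples. The SMG5 to SMG6 ratio was 1.08 and 1.43 in control, 1.24 and 1.46 with SRPIN340, and 11.7, 9.71 and 8.62 in acidosis. Every acidosis sample was above every other sample, with a log2 difference of 3.00 from control (exact permutation p = 0.1, adjusted over the 6 ratios 0.15).

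Within the kinase complex, the SMG9 to SMG8 ratio was 0.763 and 0.678 in control, 0.529 and 0.591 with SRPIN340, and 4.26, 3.62 and 3.49 in acidosis, a log2 difference of 2.39 between acidosis and control. The SMG1 to SMG8 ratio was 3.24 ± 0.403 in control (SD, n = 2) and 14.5 ± 2.81 in acidosis (SD, n = 3). For both ratios every acidosis sample was above every other sample. The exact permutation p = 0.1 for acidosis against control was the smallest this design allows. The SMG1 to UPF1 ratio, kinase to substrate, was 1.79 and 1.37 in control and 2.91, 4.13 and 3.31 in acidosis (exact permutation p = 0.1). The SMG9 to SMG1 ratio was 0.223 ± 0.00907 in control (SD, n = 2) and 0.269 ± 0.0576 in acidosis (SD, n = 3), with overlapping samples (exact permutation p = 0.4).

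**Figure D3:**
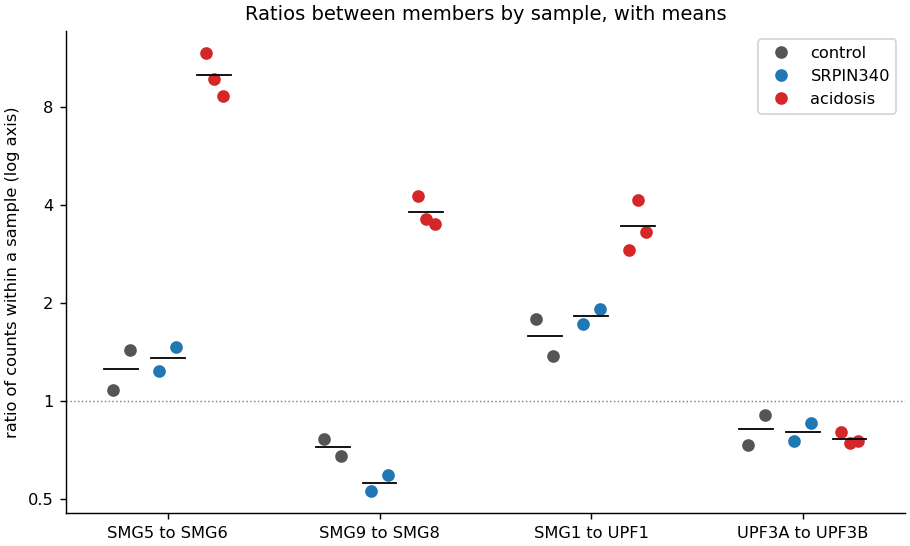
Ratios of counts for 4 pairs of members in each sample, on a log axis, with points for samples and lines for the means of the control, SRPIN340 and acidosis groups. SMG5 to SMG6 runs from 8.62 to 11.7 in acidosis and from 1.08 to 1.46 in the other samples, while for UPF3A to UPF3B the groups overlap.

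Levels of different genes were compared per length, as CPM per kb of the canonical transcript. In control, UPF3B was highest at 24.2 CPM per kb, followed by UPF1 at 21.2, SMG5 at 20.5, UPF3A at 19.5, SMG8 at 16.9, UPF2 at 14.9, SMG6 at 12.5, SMG1 at 11.0 and SMG9 at 7.16. In acidosis, SMG5 led at 61.9 CPM per kb, before SMG1 at 28.9, UPF1 at 25.5, SMG9 at 22.3, UPF3B at 14.8, UPF2 at 11.9, UPF3A at 11.2, SMG8 at 10.0 and SMG6 at 4.74. In control the highest level was 3.38 times the lowest, and the lowest gene was SMG9 in control and SMG6 in acidosis. The canonical transcripts run from 2343 bases for UPF3B to 16062 bases and 63 exons for SMG1, and each level assumes that this transcript was the one made.

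With SRPIN340, none of the 9 members passed in the edgeR test, in which 2.30% of all genes tested passed in either direction. At an unadjusted p under 0.05 there was 1 of 9 with edgeR, SMG9, and 2 of 9 with DESeq2, none of which passed after adjustment. Over all genes, 2621 of 14863 were under that limit with edgeR. With DESeq2 they were 2234, counted only among genes that were given an adjusted p. The 18020 genes with a DESeq2 p are a larger set, so the 2 numbers do not form an exact share. The SRPIN340 samples lay below both control samples for UPF1, UPF2, UPF3B, SMG6 and SMG9, and overlapped them for UPF3A, SMG1, SMG5 and SMG8. The lowest log2 fold change was that of SMG9, -0.33 (95% interval -0.60 to -0.059, unadjusted p = 0.0220, adjusted p = 0.195). For SMG6 it was -0.23 (95% interval -0.48 to 0.012, adjusted p = 0.306). The intervals for SMG1, -0.24 to 0.37, and for SMG8, -0.20 to 0.27, lie inside a change of 1 on the log2 scale, as do those of the other members.

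Acidosis set against SRPIN340, which uses the same acidosis libraries as the first comparison, gave 4 members that passed as higher and 4 as lower, against 32.8% and 35.0% of all genes tested. The calls were 3 higher and 1 lower, against 14.9% and 19.7%. SMG9 differed by 1.97 on the log2 scale (SE 0.116, adjusted p = 4.29e-07), a 3.92-fold higher level in acidosis. SMG5 differed by 1.72 (adjusted p = 1.52e-06), SMG1 by 1.33 (adjusted p = 1.09e-05) and SMG6 by -1.17 (adjusted p = 5.76e-06). SMG8 was lower in acidosis by -0.80 on the same scale (adjusted p = 5.40e-05), and UPF3B by -0.49 (adjusted p = 0.00334).

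UPF3A differed by -0.57 (adjusted p = 0.00505), which did not pass without SRPIN340 sample 2 (-0.38, adjusted p = 0.0763). UPF1 was higher in acidosis by 0.41 (adjusted p = 0.00448), but not under total-count scaling, which gave -0.20. UPF2 did not pass, with a difference of -0.03 (95% interval -0.32 to 0.26, adjusted p = 0.849).

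The group means followed 4 orders. UPF2, UPF3A, UPF3B and SMG6 were lowest in acidosis, next with SRPIN340 and highest in control, and the step between SRPIN340 and control passed in none of them, although the samples overlapped only for UPF3A. UPF1, SMG5 and SMG9 were lowest with SRPIN340, next in control and highest in acidosis, again with only the acidosis step passing. SMG1 rose from control through SRPIN340 to acidosis by means, and SMG8 from acidosis through control to SRPIN340, where control and SRPIN340 samples overlapped. For UPF2 neither neighbouring step passed and only the ends did.

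**Figure D4:**
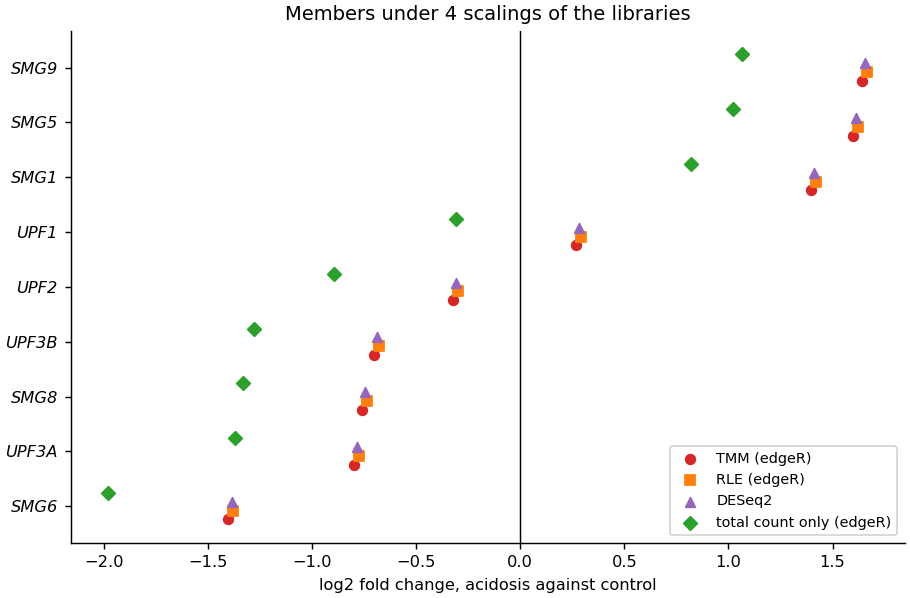
Log2 fold change in acidosis against control for the 9 genes under edgeR with TMM, RLE or total-count scaling and under DESeq2, with a line at 0. Total-count scaling lowers every gene by about the same amount and takes UPF1 below 0, while SMG1, SMG5 and SMG9 stay above 0.

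The sequence before each gene's start was read from RefSeq (GRCh38.p14, 250 bases before to 50 after the start), which held windows for 8 of the 9 members, SMG8 being the gene not in the table. The 15 windows, several for genes with more than 1 start, were searched on both strands for the motifs TGACTCA (AP-1), TGACGTCA (cyclic AMP response element), CACGTG (E-box), CCGGAAG (ETS) and CCAAT. None of these motifs contains another. The AP-1 letters occurred in 4.95% of all 35116 windows, and among the members in SMG9 and SMG6, the genes with the highest and the lowest fold change in acidosis. The E-box letters occurred in 7.26% of all windows and in 2 members, UPF2 and SMG6. CCAAT occurred in 34.6% of all windows and in 4 members, ETS in 10.3% and in 1 member, and the cyclic AMP response element in 1.85% and in no member. Counted by window, as the percentages are, 2 of the 15 member windows held AP-1 and 2 the E-box. CCAAT was in 5 of the 15, ETS in 1 and the cyclic AMP response element in 0. The stretches with the AP-1 and E-box letters are shown because AP-1 occurred in a gene that rose and in one that fell, and the E-box in a pair that fell, with the motif in capitals, written 5′ to 3′ on the strand of the gene, here the minus strand throughout. The SMG9 motif lies 99 bases before the start of the gene, on the opposite strand, both SMG6 stretches lie before starts inside the gene, and the UPF2 motif lies 237 bases before the gene start.
SMG9, chr19:43755043-43755072: cgcacgcgcatTGAGTCAgagccgcggcgt
SMG6 AP-1, chr17:2088929-2088958: tgctttttcccTGACTCAagtgctggaggc
SMG6 E-box, chr17:2266214-2266243: cactttccacccCACGTGacctttagttac
UPF2 E-box, chr10:12043390-12043419: gcccaggagaatCACGTGgccgggcttgtc

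Other genes of the pathway were read from lists. In the exon junction complex and its periphery, 7 of 10 genes rose in acidosis, 2 fell and 1 did not pass (all genes tested: 32.5% and 34.2%), with a median log2 fold change of 0.48. RNPS1, a splicing-dependent activator of NMD, averaged 247 ± 4.71 CPM in control (SD, n = 2) and 602 ± 25.9 CPM in acidosis (SD, n = 3), and its log2 fold change was 1.29 (adjusted p = 1.86e-07). The splicing protein gene PNN rose by 1.09 (adjusted p = 8.28e-07). PYM1, whose product takes the complex off translated mRNA, had a log2 fold change of -1.25 (adjusted p = 4.85e-05). Under total-count scaling 2 of these 10 genes passed as higher and 3 as lower (all genes tested: 2413 and 8179 of 14863). RNPS1 and PNN were still above 0.

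Among 8 genes for termination and cap binding, 5 rose and 2 fell (all genes tested: 32.5% and 34.2%). With total-count scaling, however, 2 passed as higher and 5 as lower (all genes tested: 2413 and 8179 of 14863). PABPC1, the main cytoplasmic poly(A)-binding protein gene, whose product near a stop codon opposes NMD, averaged 598 ± 21.4 CPM in control (SD, n = 2) and 1749 ± 76.6 CPM in acidosis (SD, n = 3), where it rose by 1.55 in log2 terms (adjusted p = 3.68e-08), and PABPC4 rose by 1.51 (adjusted p = 2.91e-07). NCBP1, the large subunit of the nuclear cap-binding complex, was at 76.8 ± 2.81 CPM in control (SD, n = 2) and at 25.4 ± 4.72 CPM in acidosis (SD, n = 3), and the log2 fold change was -1.60 (adjusted p = 5.77e-06). The median of the list was 0.27, and -0.30 with total-count scaling.

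Among 11 other decay factors and chaperones of the SMG1 kinase, 6 rose and 1 fell (all genes tested: 32.5% and 34.2%), with a median of 0.28. With total-count scaling 2 passed as higher and 5 as lower (all genes tested: 2413 and 8179 of 14863), and the median was -0.29. PNRC2, a decapping adaptor, rose by 1.18 (adjusted p = 4.76e-07), and TELO2, a chaperone subunit for kinases of the SMG1 family, by 0.76 (adjusted p = 0.00658), which did not pass without control sample 1. Leaving out 1 library moved the number of genes that rose in this list between 4 and 7.

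In the list of 18 mRNA decay enzymes, 8 rose, 7 fell and 3 did not pass (all genes tested: 32.5% and 34.2%), with a median of 0.20. DCP1A, an activator of the decapping enzyme, rose by 1.98 (adjusted p = 1.81e-07), while its paralog DCP1B was at -2.71 in the same units (adjusted p = 1.24e-06). DIS3L, the exonuclease of the cytoplasmic exosome, was at -1.11 (adjusted p = 7.23e-06). Under total-count scaling 1 gene of this list passed as higher and 12 as lower (all genes tested: 2413 and 8179 of 14863). DCP1A was then at 1.41.

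SMG1 belongs to the PI3K-like kinases, and of its 5 relatives 3 fell and 0 rose (all genes tested: 34.2% and 32.5%). MTOR had a log2 fold change of -0.77 (adjusted p = 2.70e-05), PRKDC, the DNA-dependent protein kinase, one of -0.52 (adjusted p = 1.75e-05) and TRRAP, a pseudokinase, one of -0.40 (adjusted p = 0.000229). ATM and ATR did not pass, at -0.11 and 0.00 on the log2 scale, and ATR passed as lower without acidosis sample 2.

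Of 13 genes whose transcripts are known NMD targets, 9 rose, 3 fell and ANTXR1 did not pass (all genes tested: 32.5% and 34.2%). The median log2 fold change was 1.44, or 0.86 with total-count scaling. With that scaling 8 rose and 4 fell (all genes tested: 2413 and 8179 of 14863). GADD45B went from 12.5 CPM in control to 1267 CPM in acidosis, a log2 fold change of 6.66 (adjusted p = 5.55e-11). ATF3 rose by 5.62 (adjusted p = 8.67e-09) and GADD45A by 4.63 (adjusted p = 6.49e-09). These genes are also induced by stress signals through their transcription, and gene-level counts do not separate transcription from decay. SLC7A11, TBL2 and SC5D, named because they were the 3 that fell, had log2 fold changes of -1.29, -0.58 and -0.45. With SRPIN340 none of the 13 passed in the edgeR test. At an unadjusted p under 0.05 there were 4, against 2621 of all 14863 genes tested. With DESeq2, 2 passed as higher (all genes: 323 of 18020), and 1 did so with the compared groups alone (all genes: 236 of 14588). SLC7A11 passed without acidosis sample 2 (0.83, edgeR adjusted p = 0.0419).

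**Figure D5:**
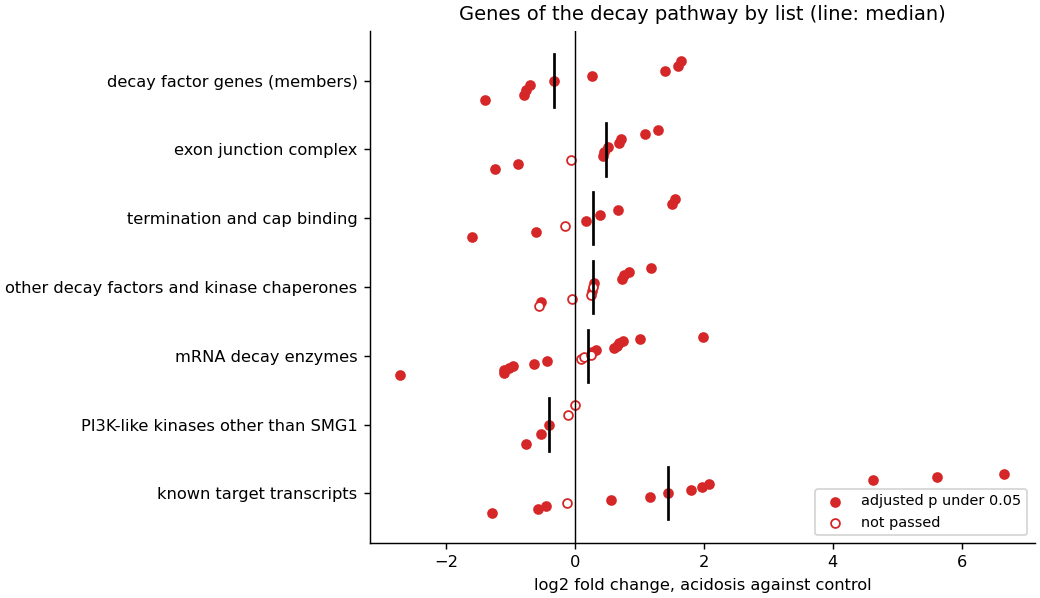
Log2 fold change in acidosis against control of the 9 members and of every gene in the other lists, with filled points for genes that passed, open points for those that did not, and a line for the median of each list, the height within a list having no meaning. The medians of the other lists run from -0.40 for the PI3K-like kinases to 1.44 for the known target transcripts, and every list but the kinases has genes on both sides of 0.

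With SRPIN340, RBM8A of the exon junction complex was the gene of these other lists that passed in the edgeR test, at 144 ± 1.71 CPM in control (SD, n = 2) and 107 ± 2.85 CPM with the inhibitor (SD, n = 2). Its log2 fold change was -0.42 (adjusted p = 0.0227), and it did not pass when either control or either SRPIN340 sample was left out. With DESeq2, 3 exon junction genes passed as lower, as did 1 gene each among the decay enzymes, the other decay factors and the PI3K-like kinases. Over all 18020 genes with a DESeq2 p, 551 passed as lower and 323 as higher. In acidosis RBM8A did not pass (-0.07, adjusted p = 0.379).

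For UPF1, UPF2 and SMG5, the genes with the most similar profile were sought among 10119 genes of at least 10 CPM, by the root mean square distance between centred log2 CPM over the 7 samples. Nearest to UPF1 were PGS1 (0.0341 log2 units), PSMG3 (0.0511) and LRP1 (0.0522). Nearest to UPF2 were DYNC1LI1 (0.0657), FANCD2 (0.0776) and NFIB (0.0780), and nearest to SMG5 were GAL (0.0585), CTXN1 (0.0610) and PPAN (0.0646). None of these genes belongs to the lists above, and the likeness rests on 7 samples in 3 groups.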

How the data were processed

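RNA-seq of 7 HEK-293 samples was analysed from 1 gene table. Per the labels and the study's methods, the authors trimmed reads with Trimmomatic 0.39 and Trim Galore 0.6.6, used Salmon 1.5.1 with transcripts of Gencode GRCh38.p13 and imported the output with tximport, whose scaling option is not given in the sources used here. The deposited table holds estimated counts for each gene. They were rounded to whole numbers, filtered with filterByExpr, scaled by TMM and fitted with edgeR 4.0.16 (R 4.3.3), all 7 samples in 1 fit with 4 residual degrees of freedom. The quasi-likelihood test gave p-values, adjusted by Benjamini-Hochberg over 14863 genes, which measure the spread between these samples. Symbols and positions came from GENCODE 44, matched by Ensembl identifier (19977 of 19978). Passed means an adjusted p under 0.05, and called also a log2 fold change beyond 1. Lists were described by counts and medians. Named genes were all members and, in each other list, the 3 with the largest change among those that passed with groups that did not overlap, of which 1 is not reported here. Likeness of profiles was computed for all members and is given for UPF1, UPF2 and SMG5. DESeq2 1.42.0, other scalings, no filter, the compared groups alone, a replicate block and leaving out each sample were tried. The edgeR fit was tested on simulated data, in which far fewer genes changed than passed in acidosis, equally in both directions. That test does not bear on the choice of scaling. The members and lists were chosen with earlier results of these data known.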

Additional observations from a re-analysis of the deposited data

How the results depend on the processing

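The limits are few samples, 2 in control and 2 with SRPIN340, and a strong dependence of small changes on scaling. In acidosis against control, 8 members passed with the replicate block, as did 9234 of all 14863 genes tested. With 1 acidosis sample left out, UPF1 missed the threshold without sample 1 and UPF2 without sample 1 or 3. Over all genes, 9554 of 14804 passed without acidosis sample 1, 9895 of 14791 without sample 2 and 9567 of 14793 without sample 3. Each setting without a control or SRPIN340 sample assumes that the lone sample varies like the others. With a log2 fold limit of 0.5 in place of 1, 7 members were called, because UPF3A, UPF3B and SMG8 then counted. The share of all genes called at that limit was not computed. The median size of change over all genes tested, 0.74, lies above it. With total-count scaling UPF1 reversed to -0.31 against control and -0.20 against SRPIN340, as that scaling lowers all acidosis libraries. Over all genes that scaling gave 815 higher and 5202 lower calls, against 2145 and 2840. SMG1, SMG5, SMG9, SMG6, SMG8, UPF3A and UPF3B passed in acidosis against control under all 13 alternatives. UPF1 missed the threshold in 7 alternatives and UPF2 in 8, UPF2 also with the block (-0.30, adjusted p = 0.127) and with RLE size factors (adjusted p = 0.0614), and the cause was not tested. No member passed with SRPIN340 under any alternative. Over all genes 342 passed with SRPIN340, 874 with DESeq2, 604 with the compared groups alone, 51 with the block, and 14 to 526 with 1 sample left out. Samples with the same replicate number did not deviate together (correlations over 14863 genes of -0.101, 0.0051 and 0.0605), so the numbers were not taken as pairs.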

Other observations

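Several paralogs in the listed genes differed in direction in acidosis, as UPF3A and UPF3B did not. These pairs were picked after their values were seen. DCP1A was at 39.8 and 38.4 CPM in control and 145, 146 and 171 CPM in acidosis, while DCP1B was at 20.2 and 16.6 CPM and then 2.32, 3.40 and 2.84 CPM. XRN1, the cytoplasmic exonuclease that degrades decapped mRNA, had a log2 fold change of 1.01 (edgeR adjusted p = 0.00354), or 0.44 with total-count scaling (adjusted p = 0.117), and its nuclear relative XRN2 one of -1.10 (adjusted p = 7.51e-07). MAGOH, an exon junction complex core subunit, had a log2 fold change of 0.46 (adjusted p = 0.00231) and its near-identical copy MAGOHB one of -0.89 (adjusted p = 0.000501), and reads of these copies may have been split in counting. With total-count scaling MAGOH was at -0.12, so that its direction depends on scaling, and MAGOHB at -1.46. DCP1A and DCP1B each overlap a calcium channel gene, CACNA1D and CACNA1C, and the part of those genes in the values was not tested.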
